A study of Mus musculus with 22 samples.

Results

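T-bet- conventional type 2 dendritic cells (cDC2s) from the spleen were compared with those from the mesenteric lymph node (MLN) across all genes. The members are the 5 RNA-seq libraries labelled as T-bet- cDC2s, 3 from spleen and 2 from MLN, among 22 samples (16 RNA-seq and 6 ATAC-seq libraries), and the labels decided which libraries are members. All cells came from untreated Tbx21RFP-cre reporter mice, 6 to 10 weeks old, in which red fluorescent protein (RFP) marks cells that express T-bet. The study included male and female mice, and its methods do not give the sex of each pool. T-bet- cDC2s were sorted as RFP- cells with CD11b and without XCR1, after lineage-positive cells (CD3 and CD90 among the markers) and cells with CD64 or Ly6C had been gated out and CD11c+ MHCII+ cells kept, and each library holds the cells of 2 pooled mice. The same study profiled T-bet+ cDC2s (RFP+) and cDC1s (XCR1+) from both tissues, and these libraries entered the statistical fit and a closing comparison. The methods describe the 3 subsets as sorted from the same pooled cells, so libraries of different subsets may come from the same mice. One sentence of the study's methods exchanges the RFP signs, and the sample labels were followed. The stated gate did not separate the migratory DCs of the MLN (MHCII high, CD11c intermediate) from its resident DCs.

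Dendritic cells capture antigen and present it to T cells. Those in the spleen sample the blood, whereas the MLN holds both resident dendritic cells and migratory ones that have carried antigen from the intestine through the lymph. Migration to a lymph node is guided by the chemokine receptor CCR7 and goes along with a maturation programme, and dendritic cells from the intestine can make retinoic acid, which imprints gut homing on the T cells that they prime. In such bulk libraries, fewer cells of one kind and less RNA per cell cannot be told apart.

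Between 21720113 and 27944616 reads were counted on genes in the 5 libraries, so for all but scarce genes the spread between libraries, and not counting error, sets the precision. A normalized count here is the count divided by the TMM-scaled library size and multiplied by the mean of those sizes, and it is not corrected for gene length, so levels are compared between libraries and not between genes. The libraries of a tissue did not form a tight group. The log2 counts of spleen replicates 1 and 3 correlated at 0.830 (Pearson, across 8098 well-expressed genes), below the 0.882 between spleen replicate 1 and MLN replicate 1, whereas the MLN replicates correlated at 0.947. Each library was set against the mean of all RNA-seq libraries of its tissue, over all 3 subsets. The deviations rose with the GC content of the transcript in spleen replicate 3 (Spearman rho 0.262 across 7638 genes) and MLN replicate 2 (0.23). They fell with it in spleen replicates 1 and 2 (-0.443 and -0.288) and MLN replicate 1 (-0.326). Centring within a tissue favours both signs in each tissue. Against the mean of all 16 RNA-seq libraries, rho was 0.283 in spleen replicate 3 but 0.0016 in MLN replicate 2. It was -0.404 and -0.178 in spleen replicates 1 and 2, and -0.315 in MLN replicate 1. The fold changes themselves were only weakly related to GC content (rho 0.1). Values are therefore given for every library, in the order of the replicates. Tissue and any difference in sorting day or sequencing run cannot be told apart.

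Csf1r, Ccl9 and Clec12a, taken as markers of T-bet- cDC2s, were read in both tissues. Csf1r, the receptor for macrophage colony-stimulating factor, had 75379.6, 46512 and 59859 normalized counts in spleen and 32781 and 24050.5 in MLN. The levels in spleen were all higher, but the difference did not pass the test (log2 fold change 1.09 ± 0.40 SE, adjusted p = 0.121). Ccl9, a chemokine that attracts CCR1-bearing cells, had 11211, 10888 and 8624 normalized counts in spleen and 2121 and 2725 in MLN, and it was higher in spleen (log2 fold change 2.08 ± 0.53 SE, adjusted p = 0.0338). Clec12a, an inhibitory lectin that recognises dead cells, had 6006, 5071 and 4770.2 normalized counts in spleen and 1784 and 2182 in MLN (log2 fold change 1.41 ± 0.34 SE, adjusted p = 0.0257). The summed level of the 3 genes was 62470 to 92596.5 in spleen and 28958 and 36687 in MLN, against 3012 to 7411 in the 11 libraries of cDC1s and T-bet+ cDC2s from either tissue. By this sum MLN and spleen T-bet- libraries both lay above all other libraries, and most of it was Csf1r. Clec12a alone did not set T-bet- cDC2s apart from cDC1s, which had means of 5426 in spleen and 3961 in MLN. The Clec12a means were 5282 and 1983 in T-bet- cDC2s and 187 and 400 in T-bet+ cDC2s. A list of 9 markers of T-bet+ cDC2s did not keep the subsets as far apart in the MLN. It summed to 23747 to 37581 in spleen T-bet- libraries and 75625 to 91136 in spleen T-bet+ ones, but to 44800.1 and 45580 in MLN T-bet- libraries and 52616 and 68912 in MLN T-bet+ ones. Most of the sum in T-bet- cDC2s came from Tbc1d4, a Rab GTPase-activating protein, with 31292, 16428 and 19468 in spleen and 38671 and 40088 in MLN (not called). Of the 9 genes, Cd7 was called higher in spleen and Esam in MLN. Tbx21 itself, which encodes T-bet, was listed at 7.2, 38.2 and 58.9 in spleen and 13.3 and 22.7 in MLN. The calls of Ccl9 and Clec12a depended on single libraries. For Ccl9 the adjusted p was 0.068 and 0.073 without spleen replicates 1 and 2, and 0.28 and 0.15 without MLN replicates 1 and 2, and for Clec12a the adjusted p was 0.068 and 0.066 without spleen replicates 1 and 2, and 0.26 and 0.12 without MLN replicates 1 and 2.

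Of 16795 genes tested, 1000 (5.95%) were called between the tissues (edgeR quasi-likelihood test, Benjamini-Hochberg adjusted p under 0.05). Of these, 267 (1.59% of the genes tested) were higher in spleen and 733 (4.36%) in MLN, so that 73.3% of the called genes were higher in MLN. The shares of 1.59% and 4.36% are the background for every count of called list members below. With scaling by library size alone, 167 genes were higher in spleen and 1091 in MLN, and the median of all genes moved from 0.04 to -0.12. All 1000 called genes had groups that did not overlap, which 40.1% of all tested genes also showed. The median log2 fold change (spleen over MLN throughout) was 1.75 among genes called higher in spleen and -2.68 among genes called higher in MLN. The genes called higher in spleen were the more abundant ones, with a median of 2009 normalized counts against 364. The number of calls depended on single libraries. It was 575, 390 and 944 without spleen replicates 1, 2 and 3, and 186 and 292 without MLN replicates 1 and 2. Without both spleen replicate 3 and MLN replicate 2, the libraries that rose with GC content, 101 genes were called, of which 100 were among the 1000 (22 higher in spleen and 79 in MLN).

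The genes with the largest differences towards the MLN were scarce in spleen. Ido1, which encodes the tryptophan-degrading enzyme indoleamine 2,3-dioxygenase, had 0, 8.9 and 12.1 in spleen and 2179.5 and 1085 in MLN, a 222-fold difference (log2 fold change -7.80 ± 1.09 SE, adjusted p = 0.0023). Slamf1, a self-ligand receptor of the SLAM family, had 7.2, 0 and 4.7 in spleen and 892 and 696 in MLN (log2 fold change -7.58 ± 0.85 SE, adjusted p = 9.11e-04). Ptk6, an intracellular tyrosine kinase, had 8.3, 0 and 10.3 in spleen and 1267 and 954 in MLN (log2 fold change -7.40 ± 0.83 SE, adjusted p = 0.00114). For these genes each MLN library lay far above every spleen library, and spleen replicates held a handful of reads or none. Serpinb9b, a member of a family of protease inhibitors whose near-identical copies may share reads, had 19.1, 0 and 0 in spleen and 763 and 619 in MLN (log2 fold change -6.79 ± 1.12 SE, adjusted p = 0.0046). Tnnt2, known as the cardiac form of troponin T, had 2.4, 5.1 and 5.6 in spleen and 404 and 355 in MLN (log2 fold change -6.39 ± 0.91 SE, adjusted p = 0.00247). Arc, an activity-regulated protein that organises the actin cytoskeleton, had 64.4, 25.4 and 95.3 in spleen and 3468 and 5043 in MLN, a 68.2-fold difference (log2 fold change -6.09 ± 0.91 SE, adjusted p = 0.00312). Ido1, Slamf1, Ptk6, Serpinb9b, Tnnt2 and Arc stayed called whichever single library was left out. Myo5b, a vesicle motor, and Mab21l3 were also called under each omission, with log2 fold changes of -7.46 and -6.31. Ccl12, a chemokine for monocytes, had 6, 0 and 0 in spleen and 279 and 70.1 in MLN (log2 fold change -6.42 ± 1.52 SE, adjusted p = 0.0371). Its call was lost in most single omissions (adjusted p was 0.11 and 0.07 without spleen replicates 2 and 3, and 0.35 and 0.072 without MLN replicates 1 and 2).

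**Figure D1:**
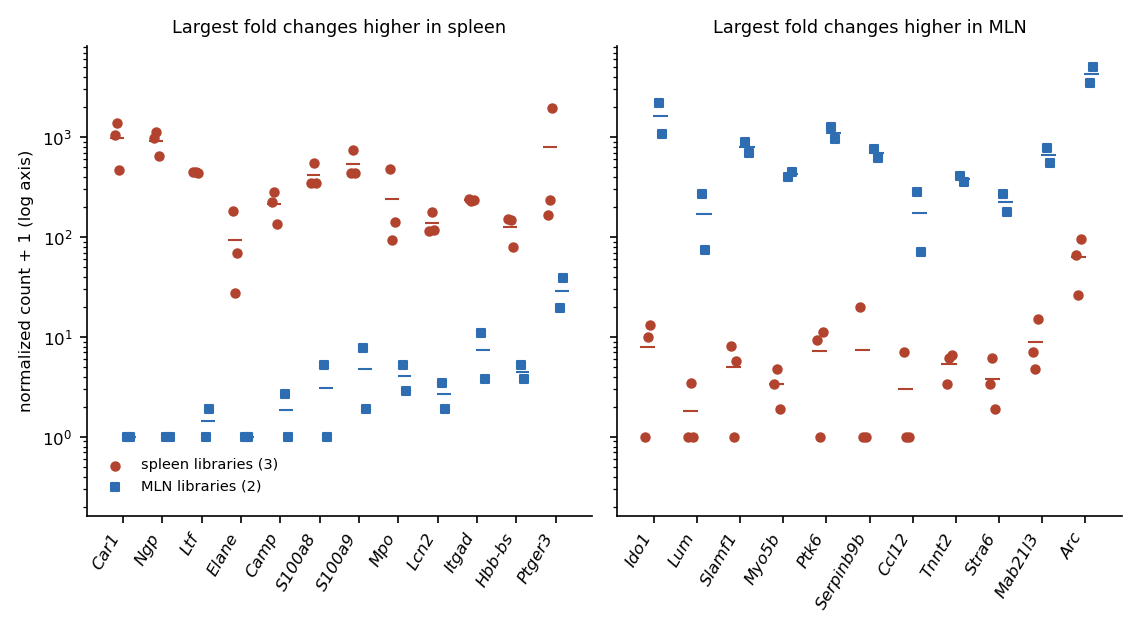
Normalized count plus 1 (log axis) of the genes with the largest fold change, 12 higher in spleen (left) and 11 higher in MLN (right). They were taken from called genes whose mean over the 5 libraries reached 50 normalized counts and whose tissues did not overlap. Red circles are the 3 spleen libraries, blue squares the 2 MLN libraries and short lines the group means. The separation of circles from squares was thus set by the selection. Car1, Ngp and Elane have no read in the MLN.

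Among abundant genes, whose mean reached 1000 normalized counts, the differences towards the MLN were led by Arc and Aldh1a2, followed by Serpinb6b, Clu, Dscaml1, Crispld2, Cacnb3, Extl1, Tnfrsf9, Adcy6, Apol10b and Insl6. Clu, which encodes the secreted chaperone clusterin, had 464, 454 and 440.1 in spleen and 10933 and 16673 in MLN (log2 fold change -4.93 ± 0.93 SE, adjusted p = 0.00862). Serpinb6b, another intracellular serpin, had 410.0, 178 and 185 in spleen and 10834 and 8837 in MLN (log2 fold change -5.25 ± 0.69 SE, adjusted p = 0.00144). Crispld2, a secreted protein, had 212, 164 and 289.7 in spleen and 6678 and 6389 in MLN (log2 fold change -4.88 ± 0.70 SE, adjusted p = 0.00255). The spread within a tissue was small beside the gap between the tissues for all of them. Adcy6, an adenylyl cyclase that makes cyclic AMP, differed 27.0-fold (log2 fold change -4.76 ± 0.81 SE, adjusted p = 0.00544). Of the 12 genes, Extl1 lost its call in 2 single omissions (adjusted p was 0.054 without spleen replicate 1, and 0.072 without MLN replicate 1), and the other 11 stayed called under every single omission.

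Of 21 tested genes that mark migratory and mature dendritic cells, 9 were higher in MLN and 0 in spleen, and 12 were not called. The median log2 fold change of the list was -1.14, beside 0.04 for all genes tested, and 6 to 9 members were called when any 1 library was left out. Cacnb3, a subunit of voltage-gated calcium channels, had 1049, 1123 and 1736 in spleen and 36392 and 36247 in MLN, a 27.9-fold difference (log2 fold change -4.80 ± 0.70 SE, adjusted p = 0.00275). Ccl22, a chemokine for CCR4-bearing T cells, had 2284, 1873 and 1528 in spleen and 34526 and 28344 in MLN (log2 fold change -4.05 ± 0.44 SE, adjusted p = 9.11e-04). Both MLN libraries stood far above the spleen libraries for these genes. Socs2, an inhibitor of cytokine signalling, had 372, 334 and 781 in spleen and 7268 and 9698 in MLN (log2 fold change -4.09 ± 0.68 SE, adjusted p = 0.00473), and Cd200, an inhibitory ligand for myeloid cells, differed 7.46-fold (log2 fold change -2.90 ± 0.56 SE, adjusted p = 0.01; adjusted p was 0.083 without MLN replicate 1). Il15ra, which presents interleukin-15 to lymphocytes, had 362, 289 and 467 in spleen and 6484 and 4424 in MLN (log2 fold change -3.87 ± 0.62 SE, adjusted p = 0.00402). Fscn1, the actin-bundling protein fascin of mature dendritic cells, had 528, 833 and 1802 in spleen and 6730.0 and 15037 in MLN (log2 fold change -3.37 ± 0.74 SE, adjusted p = 0.0181; adjusted p was 0.059 and 0.069 without spleen replicates 1 and 2, and 0.12 without MLN replicate 2). Cd40, a receptor for T cell help, differed 2.84-fold (log2 fold change -1.51 ± 0.34 SE, adjusted p = 0.02; adjusted p was 0.061 and 0.056 without spleen replicates 1 and 2, and 0.16 and 0.071 without MLN replicates 1 and 2).

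Several defining members of that list were not called. Ccr7 had 119876, 111228 and 86005 in spleen and 217361 and 241049.7 in MLN. The MLN values were both higher, by 2.17-fold on average, yet the difference did not pass the test (log2 fold change -1.12 ± 0.50 SE, adjusted p = 0.188). The transcript was thus abundant in the spleen libraries as well. Cd83, a surface marker of mature dendritic cells, had 116927, 142041 and 149888 in spleen and 49166 and 98064 in MLN (log2 fold change 0.89 ± 0.30 SE, adjusted p = 0.0971), and Cd86, a ligand of CD28, had 6369, 3847 and 3697 in spleen and 3508 and 2696 in MLN (log2 fold change 0.58 ± 0.30 SE, adjusted p = 0.239). For both the mean was higher in spleen, and neither passed the test. Pdcd1lg2, which encodes the checkpoint ligand PD-L2, had 978, 1014 and 817 in spleen and 1922 and 1137 in MLN (log2 fold change -0.71 ± 0.45 SE, adjusted p = 0.343).

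Apol7c, an apolipoprotein L family member expressed in dendritic cells, had 10657, 8021 and 11059.8 in spleen and 179969 and 127022 in MLN, a 15.5-fold difference (log2 fold change -3.95 ± 0.63 SE, adjusted p = 0.00392), and its relative Apol10b differed 26.8-fold (log2 fold change -4.75 ± 0.73 SE, adjusted p = 0.00357). Near-identical members of this family may share reads. The 250 bases before the RefSeq start of Apol7c (GRCm38.p6, chr15:77533316-77533565, minus strand) are shown because they hold 2 overlapping matches to an interferon response element-like motif (GAAA, any 2 bases, GAAA, searched on both strands), in capitals.

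Apol7c: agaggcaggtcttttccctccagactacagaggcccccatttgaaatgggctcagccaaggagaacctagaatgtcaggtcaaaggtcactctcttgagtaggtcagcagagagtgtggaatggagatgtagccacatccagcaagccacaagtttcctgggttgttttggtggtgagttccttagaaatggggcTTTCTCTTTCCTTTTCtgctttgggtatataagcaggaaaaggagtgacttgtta

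The matches lie at bases 55 to 46 and 49 to 40 before the start, and 3.35% of the 10093 tested genes with a promoter sequence hold such a match. A match is a string of letters and not a measured binding site. The ATAC-seq windows were called on the libraries of all subsets together, and 2 of them overlapped this promoter region. The higher window in each of the 2 spleen T-bet- libraries held 0.599 and 0.814 counts per 1000000 (5 and 8 reads), below the medians of 2.16 and 2.24 over all windows, so accessibility was not shown here.

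A few genes of vitamin A handling were higher in MLN. Aldh1a2, which encodes the enzyme RALDH2 that makes retinoic acid from retinal, had 62, 123 and 148 in spleen and 2766 and 7768 in MLN. The lower MLN library lay far above all spleen libraries, and the fitted difference was 47.3-fold (log2 fold change -5.56 ± 0.74 SE, adjusted p = 0.00148). The gene lies at chr9:71215789-71296243 on the plus strand. Stra6, a receptor for retinol uptake, had 2.4, 5.1 and 0.9 in spleen and 269.6 and 179 in MLN (log2 fold change -6.32 ± 1.24 SE, adjusted p = 0.0103). Dhrs3, a reductase that turns retinal back into retinol, had 1489.8, 898 and 713 in spleen and 3404 and 3044 in MLN, a 3.12-fold difference (log2 fold change -1.64 ± 0.32 SE, adjusted p = 0.00985). Aldh1a2 stayed called under every single omission, whereas Stra6 (adjusted p was 0.058 without MLN replicate 1) and Dhrs3 (adjusted p was 0.051 without spleen replicate 2, and 0.083 without MLN replicate 1) did not. Of 14 tested genes of retinoic acid synthesis and response, these 3 were higher in MLN, 0 were higher in spleen and 11 were not called, and the median log2 fold change was -1.28. The list's median changed sign in 1 or more of the alternative fits, with a range from -1.45 to 0.27. The other enzymes of this step, Aldh1a1 and Aldh1a3, had at most 23 normalized counts in any of the 5 libraries, and the receptors Rara, Rarb, Rarg, Rxra and Rxrb were not called. The 250 bases before the start of Aldh1a2 (GRCm38.p6, chr9:71215539-71215788, plus strand) are shown as the promoter of the abundant gene with the second-largest difference, and hold neither motif searched.

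Aldh1a2: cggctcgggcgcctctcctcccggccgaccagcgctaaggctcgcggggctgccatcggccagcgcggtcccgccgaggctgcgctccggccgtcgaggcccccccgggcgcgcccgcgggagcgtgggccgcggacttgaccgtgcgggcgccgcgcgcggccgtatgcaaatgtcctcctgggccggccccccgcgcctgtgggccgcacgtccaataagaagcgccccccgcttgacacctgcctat

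In T-bet- cDC2s of the spleen, where Aldh1a2 transcripts were few, 1 such window of 150 bases overlapped this promoter region, with 3.83 and 5.50 ATAC-seq counts per 1000000 in the 2 libraries (32 and 54 reads). The median over all 177956 windows was 2.16 and 2.24. The ATAC-seq libraries used here are from spleen alone.

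Chemokine ligands went both ways. Of 18 tested, 4 were higher in spleen and 4 in MLN, beside 1.59% and 4.36% of all tested genes, with a median log2 fold change of -1.30. The 4 higher in MLN were Ccl22, Ccl17, Ccl12 and Cxcl1. Ccl17, the second ligand of CCR4, had 58.4, 112 and 45.8 in spleen and 524 and 789 in MLN (log2 fold change -3.19 ± 0.67 SE, adjusted p = 0.0141; adjusted p was 0.05 without spleen replicate 1, and 0.053 and 0.091 without MLN replicates 1 and 2). Cxcl1, a chemokine for neutrophils, had 85.8, 34.3 and 24.3 in spleen and 616 and 808 in MLN (log2 fold change -3.89 ± 0.58 SE, adjusted p = 0.00312). The Cxcl1 values of the tissues were far apart, and the call held under every single omission. The 250 bases before its start (GRCm38.p6, chr5:90890995-90891244, plus strand) are shown for 3 matches to an NF-kB-like motif (GGG, any 3 bases, TTCC, both strands), in capitals, of which the last 2 overlap by 9 bases on opposite strands.

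Cxcl1: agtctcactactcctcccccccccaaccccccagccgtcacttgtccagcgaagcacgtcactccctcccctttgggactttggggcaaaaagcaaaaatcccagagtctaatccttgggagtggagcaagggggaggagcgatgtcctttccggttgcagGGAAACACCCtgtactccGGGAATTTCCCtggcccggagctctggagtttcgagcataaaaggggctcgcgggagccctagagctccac

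Such a match was present in 5 of the 12 chemokine ligand promoters available (41.7%) and in 6.16% of all 10093. No ATAC-seq window overlapped the Cxcl1 promoter region in spleen.

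The 4 chemokine ligands higher in spleen were Ccl3, Ccl4, Ccl6 and Ccl9, of the CC family. Ccl3 had 5025, 4379 and 3439 in spleen and 902 and 1363 in MLN (log2 fold change 1.92 ± 0.37 SE, adjusted p = 0.0103), and Ccl4 had 11167, 12504 and 6492 in spleen and 1661 and 2720.3 in MLN (log2 fold change 2.2 ± 0.52 SE, adjusted p = 0.0257). Ccl6 had 9853, 8227 and 6901 in spleen and 2146 and 2401 in MLN (log2 fold change 1.87 ± 0.32 SE, adjusted p = 0.0051). The groups did not overlap for any of them, as for every called gene, and MLN replicate 1 was the lowest library in each. The calls depended on single libraries, although the fold changes stayed positive in every single omission. The log2 fold change ran from 1.72 to 1.99 for Ccl6, 1.62 to 2.22 for Ccl3 and 1.85 to 2.58 for Ccl4. For Ccl3 the adjusted p was 0.14 without MLN replicate 1, for Ccl6 the adjusted p was 0.074 without MLN replicate 1, and for Ccl4 the adjusted p was 0.055 and 0.073 without spleen replicates 1 and 2, and 0.25 and 0.091 without MLN replicates 1 and 2.

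Among 18 cytokines, 3 were higher in spleen and 2 in MLN, beside 1.59% and 4.36% of all tested genes (median log2 fold change -0.20). Il1b, which encodes interleukin-1β, had 204715, 221772 and 123758 in spleen and 38331 and 60459 in MLN (log2 fold change 1.89 ± 0.48 SE, adjusted p = 0.0339). Il12b, the shared subunit of interleukin-12 and interleukin-23, had 3852, 2429 and 2558 in spleen and 389.5 and 816 in MLN (log2 fold change 2.29 ± 0.58 SE, adjusted p = 0.0336), and Tnf had 876, 1091 and 811 in spleen and 206 and 391 in MLN (log2 fold change 1.63 ± 0.34 SE, adjusted p = 0.015). All spleen values lay above the MLN values for these 3 inflammatory cytokines, and no called gene overlapped between tissues. Il15, which sustains memory T cells and natural killer cells, went the other way with 409, 426 and 319.6 in spleen and 3052 and 2311 in MLN (log2 fold change -2.80 ± 0.54 SE, adjusted p = 0.0097), as did Il6 with 237, 169 and 136 in spleen and 592 and 584 in MLN (log2 fold change -1.70 ± 0.41 SE, adjusted p = 0.0267). Il15 and its receptor Il15ra were thus both higher in MLN. Leaving out 1 library ended each of these calls. For Tnf the adjusted p was 0.23 without MLN replicate 1, and for Il15 the adjusted p was 0.072 without MLN replicate 1. For Il1b the adjusted p was 0.07 and 0.093 without spleen replicates 1 and 2, and 0.3 and 0.1 without MLN replicates 1 and 2, and for Il12b the adjusted p was 0.078 and 0.059 without spleen replicates 1 and 2, and 0.32 and 0.09 without MLN replicates 1 and 2. For Il6 the adjusted p was 0.099 and 0.064 without spleen replicates 2 and 3, and 0.15 and 0.11 without MLN replicates 1 and 2. Il1r2, a decoy receptor that binds interleukin-1 without signalling, had the largest fold difference among abundant genes higher in spleen, with 24279.6, 20534 and 7345 in spleen and 674 and 734 in MLN (24.7-fold; log2 fold change 4.63 ± 0.65 SE, adjusted p = 0.0023), and was called under every single omission.

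Costimulatory receptors of the TNF family were among the genes higher in MLN. Tnfrsf9, the receptor 4-1BB, had 303, 262 and 329.9 in spleen and 8681 and 7894 in MLN, a 27.8-fold difference (log2 fold change -4.79 ± 0.70 SE, adjusted p = 0.00303). Tnfrsf4, the receptor OX40, had 236, 312 and 236 in spleen and 5440.1 and 4344 in MLN, an 18.7-fold difference (log2 fold change -4.23 ± 0.68 SE, adjusted p = 0.00403). Both stayed called under every single omission. Cd27, the receptor for CD70, was scarce, with 17.9, 3.8 and 3.7 in spleen and 67.4 and 72.9 in MLN (log2 fold change -3.04 ± 0.72 SE, adjusted p = 0.0258; adjusted p was 0.098 and 0.063 without spleen replicates 2 and 3, and 0.12 and 0.11 without MLN replicates 1 and 2). Tnfrsf1a, the ubiquitous TNF receptor, went the other way with 10108, 13402 and 10311 in spleen and 2060.5 and 3147 in MLN (log2 fold change 2.11 ± 0.37 SE, adjusted p = 0.00655; adjusted p was 0.099 without MLN replicate 1). Of 14 tested genes of this list, these 3 were higher in MLN and 1 in spleen, beside 4.36% and 1.59% of all tested genes. The median log2 fold change of the list was 0.13. Cd27 and the T cell receptor gene Trac are also T cell transcripts, whose levels are given further on.

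Of 26 type I interferon-stimulated genes, 5 were higher in MLN and 0 in spleen, 22 had a negative and 4 a positive log2 fold change, and the median was -0.73. Mx1, an antiviral GTPase, had 385, 398 and 402 in spleen and 7241 and 6351 in MLN, a 17.2-fold difference (log2 fold change -4.11 ± 0.55 SE, adjusted p = 0.00151). Usp18, which removes ISG15 from proteins and dampens interferon signalling, had 2094, 1721 and 1993 in spleen and 13817 and 12134 in MLN, a 6.70-fold difference (log2 fold change -2.75 ± 0.31 SE, adjusted p = 9.11e-04). These held under every single omission. Ifit1, an RNA-binding antiviral protein, had 259.8, 256 and 216 in spleen and 1137 and 858 in MLN (log2 fold change -2.03 ± 0.40 SE, adjusted p = 0.0103; adjusted p was 0.1 without MLN replicate 1). Mx2 and Oasl1 were called with adjusted p of 0.046 and 0.0472, and both lost the call under each of the 5 single omissions (largest without MLN replicate 1, at 0.25 and 0.41). Other members of the programme were not called. Isg15 had 1630.4, 2092 and 745 in spleen and 2795 and 1958 in MLN (log2 fold change -0.68 ± 0.35 SE, adjusted p = 0.245), and Irf7 had 4919.8, 5817 and 4032 in spleen and 12208 and 7407 in MLN (log2 fold change -0.99 ± 0.38 SE, adjusted p = 0.13). The tissues did not overlap for Irf7, as for 40.1% of all tested genes, while for Isg15 MLN replicate 2 lay below spleen replicate 2. The 250 bases before the start of Ifit1 (GRCm38.p6, chr19:34640639-34640888, plus strand) are shown for 2 matches to the interferon response element-like motif.

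Ifit1: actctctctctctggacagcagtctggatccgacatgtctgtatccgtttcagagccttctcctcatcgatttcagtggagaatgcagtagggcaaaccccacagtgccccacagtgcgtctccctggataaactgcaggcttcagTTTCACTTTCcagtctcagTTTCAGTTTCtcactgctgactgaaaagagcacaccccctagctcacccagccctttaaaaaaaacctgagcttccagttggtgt

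The matches lie at bases 104 to 95 and 85 to 76 before the start. Of 19 promoters available for this list, 8 (42.1%) held such a match. Among all 10093 tested genes with a promoter sequence the share was 3.35%. It was 6.74% among all genes called higher in MLN and 6.99% among those called higher in spleen.

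The cholesterol synthesis pathway, which SREBP2 controls, had 3 of 19 genes higher in MLN and 0 in spleen (16 members had a negative and 3 a positive log2 fold change). Idi1, an isomerase of the pathway, had 404, 162 and 308 in spleen and 2250.3 and 1808 in MLN (log2 fold change -2.80 ± 0.68 SE, adjusted p = 0.028). Hmgcs1, which makes the precursor of mevalonate, had 2088, 1168 and 1618 in spleen and 5818 and 5389 in MLN (log2 fold change -1.79 ± 0.46 SE, adjusted p = 0.0356), and Fdft1, which makes squalene, had 698, 959 and 682 in spleen and 2482 and 2095 in MLN (log2 fold change -1.55 ± 0.43 SE, adjusted p = 0.0472). The groups of these 3 genes did not overlap, as for all 1000 called genes. The 3 calls were lost under every single omission, with 0 of the 19 genes called (largest adjusted p without MLN replicate 1, at 0.15 for Idi1, 0.19 for Hmgcs1 and 0.26 for Fdft1). Of 11 LXR targets and lipid efflux genes, 0 were called by edgeR and at most 2 in any alternative fit.

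Notch ligands and a Notch target differed in opposite directions. Dll4, a ligand of Notch, had 23.8, 21.6 and 28 in spleen and 524 and 563 in MLN (log2 fold change -4.46 ± 0.92 SE, adjusted p = 0.0133), and Jag1, another ligand, had 71.5, 47.1 and 66.3 in spleen and 204 and 182 in MLN (log2 fold change -1.64 ± 0.39 SE, adjusted p = 0.0264). Dtx3, of the Deltex family, had 729, 814 and 388 in spleen and 3145 and 2557 in MLN (log2 fold change -2.15 ± 0.43 SE, adjusted p = 0.0117). Hes1, a transcriptional repressor that Notch induces, was higher in spleen with 169, 252 and 388 in spleen and 33.3 and 31.2 in MLN (log2 fold change 3.06 ± 0.66 SE, adjusted p = 0.0165). The receptor Notch2 was not called (2199, 2549.9 and 3060.2 in spleen and 827 and 2211 in MLN). Of 19 tested Notch pathway genes, 1 was higher in spleen and 3 in MLN, beside 1.59% and 4.36% of all tested genes. None of the 4 calls held under every single omission. For Dll4 the adjusted p was 0.058 without spleen replicate 2, and 0.057 and 0.052 without MLN replicates 1 and 2, and for Jag1 the adjusted p was 0.091 without spleen replicate 2, and 0.16 and 0.094 without MLN replicates 1 and 2. For Dtx3 the adjusted p was 0.097 without MLN replicate 1, and for Hes1 the adjusted p was 0.16 and 0.13 without MLN replicates 1 and 2. Other genes higher in MLN among the lists were Cd1d1, which presents lipids to natural killer T cells and whose near-identical neighbour Cd1d2 may share its reads, with 1946, 1761 and 1489.5 in spleen and 30839 and 18278 in MLN (log2 fold change -3.83 ± 0.48 SE, adjusted p = 0.00114), and Id2, a transcription factor that dendritic cell development needs, with 14993, 17919.5 and 11132 in spleen and 59443 and 50959.5 in MLN (log2 fold change -1.91 ± 0.35 SE, adjusted p = 0.00736; adjusted p was 0.061 without MLN replicate 1). Itgb8, an integrin subunit that activates TGF-β, had 27.4, 14 and 9.3 in spleen and 669.9 and 189 in MLN (log2 fold change -4.67 ± 1.23 SE, adjusted p = 0.0392; lost under each single omission, up to 0.28 without MLN replicate 1).

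**Figure D2:**
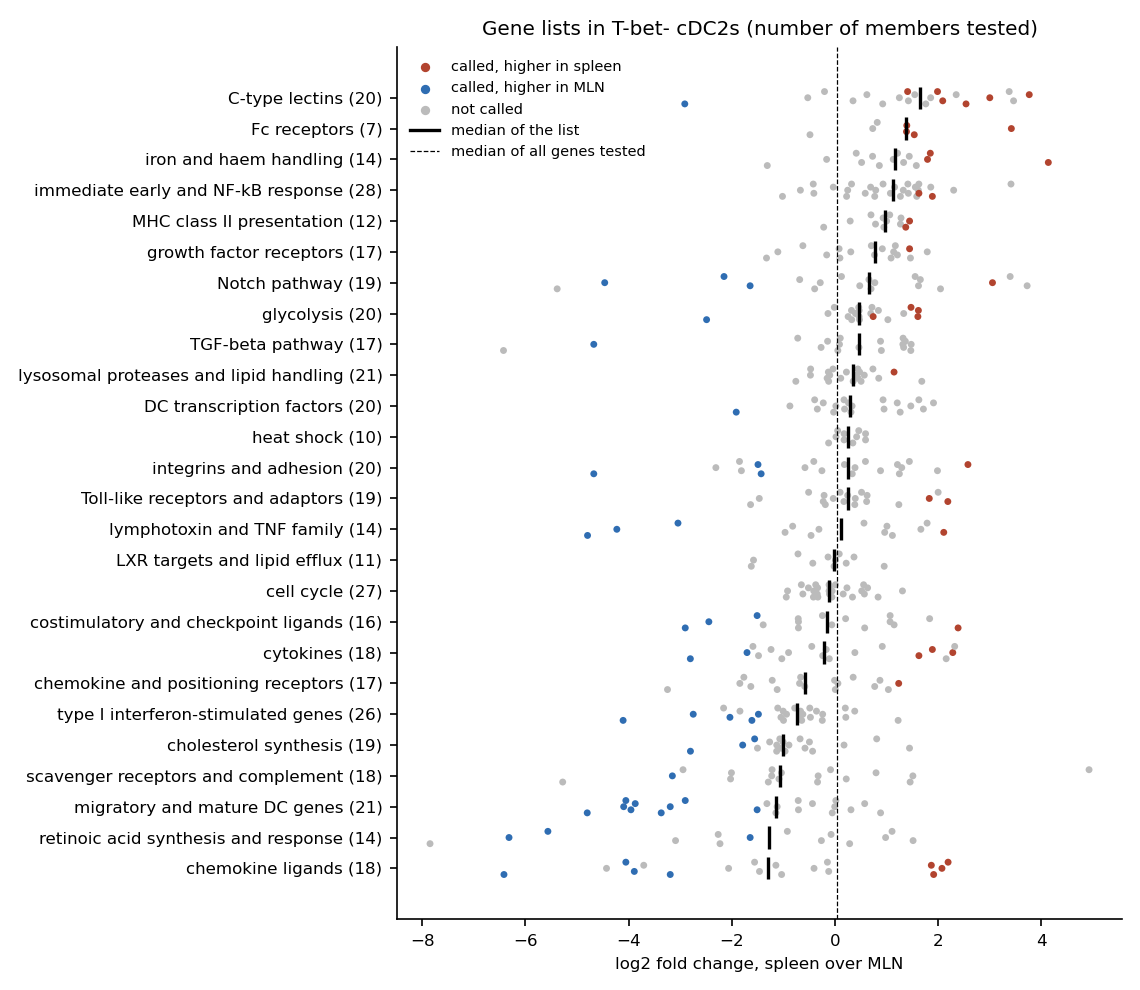
Log2 fold change (spleen over MLN) of the tested members of 26 gene lists, with the number tested in brackets. Red and blue points were called higher in spleen and MLN, grey points were not called, thick bars are list medians and the dashed line is the median of all genes (0.04); list medians run from -1.30 for chemokine ligands to 1.66 for C-type lectins.

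C-type lectins, receptors for sugars and dead cells, leaned towards the spleen. Of 20 tested, 6 were higher in spleen and 1 in MLN, beside 1.59% and 4.36% of all tested genes. A positive log2 fold change was seen in 17, and the median was 1.66. Between 1 and 6 stayed called in spleen when any 1 library was left out. Cd209a, a homologue of human DC-SIGN, had 28457, 26249.8 and 26485 in spleen and 2569.9 and 4164 in MLN, a difference of 8.04-fold (log2 fold change 3.01 ± 0.48 SE, adjusted p = 0.00403; adjusted p was 0.072 without MLN replicate 1). Cd209b, its relative SIGN-R1, had 1346, 1340.5 and 1241 in spleen and 88.2 and 103 in MLN, a 13.7-fold difference (log2 fold change 3.77 ± 0.44 SE, adjusted p = 9.11e-04), and held under every single omission. Clec7a, which encodes the beta-glucan receptor Dectin-1, had 88550.3, 49126 and 37260.1 in spleen and 7790.3 and 12180.1 in MLN (log2 fold change 2.55 ± 0.47 SE, adjusted p = 0.00812; adjusted p was 0.11 without MLN replicate 1). Every spleen library lay well above both MLN libraries for these 3 genes. Clec4a1 and Clec4a4, both of the DCIR family, differed 3.98-fold and 4.27-fold (log2 fold change 1.99 ± 0.45 SE, adjusted p = 0.0207 and log2 fold change 2.09 ± 0.58 SE, adjusted p = 0.0498). For Clec4a1 the adjusted p was 0.058 and 0.053 without spleen replicates 1 and 2, and 0.14 and 0.17 without MLN replicates 1 and 2, and for Clec4a4 the adjusted p was 0.085 and 0.12 without spleen replicates 1 and 2, and 0.3 and 0.24 without MLN replicates 1 and 2. Ly75, the uptake receptor DEC-205, was the only lectin higher in MLN, with 1025, 366 and 655 in spleen and 6038 and 4213 in MLN (log2 fold change -2.91 ± 0.56 SE, adjusted p = 0.00995; adjusted p was 0.077 without MLN replicate 1). The 250 bases before the start of Cd209a (GRCm38.p6, chr8:3748985-3749234, minus strand) are shown as the promoter of the abundant lectin most different between tissues with ATAC-seq signal in spleen.

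Cd209a: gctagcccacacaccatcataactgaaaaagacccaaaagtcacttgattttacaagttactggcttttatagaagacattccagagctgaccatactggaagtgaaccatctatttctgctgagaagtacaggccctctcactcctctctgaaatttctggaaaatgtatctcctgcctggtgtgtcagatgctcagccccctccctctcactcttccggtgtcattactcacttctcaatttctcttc

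Neither motif occurs in this stretch. In spleen T-bet- cDC2s 1 ATAC-seq window overlapped the promoter region, with 6.11 and 5.70 counts per 1000000 (51 and 56 reads). ATAC-seq windows overlapped 79 of the 186 promoters available for genes called higher in spleen (42.5%), 183 of 430 for genes called higher in MLN (42.6%) and 43.7% of all 10093. The 3 shares were close to one another.

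Of 7 tested genes of Fc receptors for antibodies, 4 were called higher in spleen, 0 were called in MLN and 3 were not called (median log2 fold change 1.39). Of all tested genes, 1.59% were called higher in spleen. With 1 library left out, 0 to 4 were called. Fcgr4, an activating receptor for IgG, had 1696, 2059 and 1512 in spleen and 236 and 89.9 in MLN, a 10.7-fold difference (log2 fold change 3.42 ± 0.68 SE, adjusted p = 0.0109; adjusted p was 0.11 without MLN replicate 2). Fcgr2b, the inhibitory receptor for IgG, had 6653, 5194 and 4335 in spleen and 2005 and 1699 in MLN (log2 fold change 1.54 ± 0.42 SE, adjusted p = 0.0439). Fcer1g, the signalling chain that the activating receptors share, had 23935, 29591 and 17131 in spleen and 9381 and 8579 in MLN (log2 fold change 1.39 ± 0.29 SE, adjusted p = 0.0133), and Fcgrt, which recycles IgG, had 6749, 7343 and 5647 in spleen and 2313 and 2682 in MLN (log2 fold change 1.40 ± 0.35 SE, adjusted p = 0.0332). An activating and an inhibitory receptor were thus both higher in spleen. Leaving out 1 library ended these calls. For Fcgr2b the adjusted p was 0.098 and 0.1 without spleen replicates 1 and 2, and 0.23 and 0.24 without MLN replicates 1 and 2. For Fcer1g the adjusted p was 0.059 without spleen replicate 2, and 0.12 and 0.13 without MLN replicates 1 and 2, and for Fcgrt the adjusted p was 0.067 and 0.096 without spleen replicates 1 and 2, and 0.28 and 0.15 without MLN replicates 1 and 2.

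Genes of iron handling had 3 of 14 members higher in spleen and 0 in MLN, beside 1.59% and 4.36% of all tested genes (median log2 fold change 1.18). Slc40a1, which encodes the iron exporter ferroportin, had 1387, 526 and 885 in spleen and 52.4 and 53 in MLN, a 17.7-fold difference (log2 fold change 4.14 ± 0.65 SE, adjusted p = 0.00367; adjusted p was 0.055 without MLN replicate 1). Hmox1, the haem-degrading enzyme, had 4295, 4579.7 and 2828 in spleen and 1041 and 1201 in MLN (log2 fold change 1.80 ± 0.46 SE, adjusted p = 0.0358). Nfe2l2, the oxidative stress factor NRF2, had 28813, 22184 and 16708 in spleen and 5175 and 7322 in MLN (log2 fold change 1.85 ± 0.30 SE, adjusted p = 0.00403; adjusted p was 0.071 without MLN replicate 1). For Hmox1 the adjusted p was 0.074 and 0.089 without spleen replicates 1 and 2, and 0.28 and 0.17 without MLN replicates 1 and 2. Spic, a factor of splenic red pulp macrophages, was not called (3046, 2868 and 1935 in spleen and 1865 and 1282 in MLN).

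Other abundant genes higher in spleen included surface receptors, proteases and an eicosanoid enzyme. Hpgd, which inactivates prostaglandins, had 11501, 7997 and 8786 in spleen and 1346 and 1014 in MLN, a 7.99-fold difference (log2 fold change 3.0 ± 0.33 SE, adjusted p = 9.11e-04). Cd300e, an activating myeloid receptor, had 3033, 2022 and 2356 in spleen and 239 and 296 in MLN (log2 fold change 3.21 ± 0.47 SE, adjusted p = 0.00305). Both held under every single omission. Ace, angiotensin-converting enzyme, had 1282, 1722 and 4809.5 in spleen and 60.8 and 179 in MLN (log2 fold change 4.44 ± 0.80 SE, adjusted p = 0.00736; adjusted p was 0.095 without MLN replicate 1). Mmp12, the macrophage elastase, had 13087, 7272 and 6644 in spleen and 801 and 1341 in MLN (log2 fold change 3.07 ± 0.48 SE, adjusted p = 0.00367; adjusted p was 0.06 without MLN replicate 1). Plaur, the urokinase receptor, had 26887, 30592 and 13777 in spleen and 2578 and 3563 in MLN (log2 fold change 2.95 ± 0.53 SE, adjusted p = 0.00687; adjusted p was 0.087 without MLN replicate 1), and Itgal, the alpha chain of the integrin LFA-1, had 11308, 6702 and 7907 in spleen and 1486 and 1398 in MLN (log2 fold change 2.58 ± 0.46 SE, adjusted p = 0.00657; adjusted p was 0.077 and 0.067 without MLN replicates 1 and 2). The highest spleen value of Ace was that of replicate 3, whereas replicate 3 was the lowest spleen library for Mmp12 and Plaur. Itgad, the alpha D integrin chain of splenic macrophages, was scarce in the MLN, with 242, 228 and 234 in spleen and 10 and 2.8 in MLN, a 35.4-fold difference (log2 fold change 5.15 ± 0.74 SE, adjusted p = 0.00255).

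MHC class II genes were high in both tissues, with 2 of 12 called higher in spleen and 0 in MLN. The called genes, H2-Oa and H2-Ob, encode the chains of H2-O, which restrains peptide loading. H2-Ob had 7765, 7473 and 7945 in spleen and 2732 and 3216 in MLN (log2 fold change 1.38 ± 0.38 SE, adjusted p = 0.0472) and H2-Oa had 17092, 25291 and 14269.6 in spleen and 6599 and 7216 in MLN (log2 fold change 1.45 ± 0.39 SE, adjusted p = 0.0417). H2-Aa had 577547, 680843 and 427529 in spleen and 269001 and 290715 in MLN (log2 fold change 1.01 ± 0.31 SE, adjusted p = 0.0703) and the invariant chain gene Cd74 had 1921112, 2417417 and 1336516 in spleen and 1115989 and 1071534 in MLN (log2 fold change 0.79 ± 0.32 SE, adjusted p = 0.153), and neither passed the test. For H2-Oa the adjusted p was 0.067 and 0.14 without spleen replicates 1 and 2, and 0.29 and 0.19 without MLN replicates 1 and 2, and H2-Ob lost the call under each single omission, up to 0.34 without MLN replicate 1. Of 9 cDC2 identity genes, Cd209a and Clec4a4 were called. Sirpa had 15793, 18538 and 41815 in spleen and 7264 and 11256 in MLN, Itgam had 2562, 1562 and 1613 in spleen and 838 and 767 in MLN, Itgax had 36179, 22043 and 24839 in spleen and 11453 and 12387 in MLN and Irf4 had 3830.5, 2299 and 2485 in spleen and 2416 and 2618 in MLN. None of these 4 was called (adjusted p of 0.186, 0.107, 0.0701 and 0.866). The lineage factor Zbtb46 and the cytokine receptor Flt3 were highest in spleen replicate 3, at 498, 757 and 3359 in spleen and 1085 and 1634 in MLN and 3739.9, 5785 and 12309 in spleen and 4751 and 8832 in MLN, and without that library both fold changes were negative (-1.12 and -0.51).

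Some of the largest spleen differences were in genes of other blood cells. Of 9 tested neutrophil markers, 6 were higher in spleen (0 to 6 with 1 library left out), and of 6 erythroid markers 3 were (2 to 3). Car1, carbonic anhydrase 1 of red cells, had 1056, 1393 and 465 in spleen and 0 and 0 in MLN, which is at least 692-fold higher in spleen against a floor of 3 counts over the MLN group. Ngp, a neutrophil granule protein, had 968, 1117 and 639 in spleen and 0 and 0 in MLN, at least 663-fold higher. Ltf, which encodes lactoferrin, had 1 read in the MLN libraries together and 442, 443 and 433 in spleen and 0 and 0.9 in MLN, a ratio of 990 with a 95% counting interval (exact binomial) of 177 to 39100. These 3 transcripts were present in every spleen library and absent or nearly absent in the MLN. Elane, neutrophil elastase, was at least 68.7-fold higher, and Camp, an antimicrobial peptide precursor, had a ratio of 231 with an interval of 63.6 to 1910. S100a8 had 350.4, 546 and 343 in spleen and 4.2 and 0 in MLN (log2 fold change 7.49 ± 1.63 SE, adjusted p = 0.0173), and Mpo, myeloperoxidase, had 483, 92.8 and 142 in spleen and 4.2 and 1.9 in MLN (log2 fold change 6.23 ± 0.92 SE, adjusted p = 0.0046). The adult haemoglobin gene Hbb-bs, whose near-identical neighbour Hbb-bt may share reads, had 150.2, 146 and 78.5 in spleen and 4.2 and 2.8 in MLN (log2 fold change 5.10 ± 0.66 SE, adjusted p = 0.0014). Car1, Mpo and Hbb-bs stayed called under every single omission, and the others did not. For Ngp the adjusted p was 0.15 and 0.11 without MLN replicates 1 and 2, and for Ltf the adjusted p was 0.12 and 0.071 without MLN replicates 1 and 2. For Elane the adjusted p was 0.075 and 0.055 without MLN replicates 1 and 2, and for S100a8 the adjusted p was 0.1 and 0.14 without MLN replicates 1 and 2. For Camp the adjusted p was 0.054 and 0.069 without spleen replicates 1 and 2, and 0.19 and 0.2 without MLN replicates 1 and 2.

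The neutrophil markers summed to 2240 to 3377 normalized counts in the spleen T-bet- libraries and 70.1 to 78.2 in the MLN ones. The defining surface marker Ly6g was at 5 or less in all 5 libraries and was not tested, and Retnlg (75.1, 135 and 53.3 in spleen and 30.8 and 54.9 in MLN), Mmp8 (159.7, 72.5 and 62.6 in spleen and 1.7 and 3.8 in MLN) and Cxcr2 were not called. The same list summed to 2259.5 to 2509 in spleen T-bet+ cDC2s and 638 to 1136 in spleen cDC1s, and to 0 to 423 in the other MLN libraries. Erythroid markers summed to 604 to 1683 in the spleen T-bet- libraries and 7.6 to 10 in the MLN ones. Their part in the other spleen differences was not tested. The sums of macrophage markers overlapped between the tissues, at 18736 to 27061 in spleen and 18434 and 28136 in MLN. Among them Adgre1, which encodes F4/80, was higher in spleen with 13652, 8309 and 9585 in spleen and 2167 and 2236 in MLN (log2 fold change 2.26 ± 0.34 SE, adjusted p = 0.00312), as was Cd5l (log2 fold change 3.92 ± 1.06 SE, adjusted p = 0.0439; adjusted p was 0.077 and 0.089 without spleen replicates 1 and 2, and 0.32 and 0.19 without MLN replicates 1 and 2), whereas C1qa, a complement subunit, was not called with 5089, 4987 and 3368 in spleen and 13598 and 7328 in MLN (log2 fold change -1.22 ± 0.69 SE, adjusted p = 0.283).

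The summed T cell and plasmacytoid dendritic cell (pDC) markers were higher in both MLN libraries than in any spleen library. T cell markers summed to 73.8 to 119 in spleen and 490 to 752 in MLN, with 1 of 9 called. That gene was Trac, the T cell receptor alpha constant gene, with 17.9, 10.2 and 9.3 in spleen and 122 and 96.6 in MLN (log2 fold change -3.13 ± 0.61 SE, adjusted p = 0.0105; adjusted p was 0.076 without MLN replicate 1). Cd3e had 3.6, 0 and 2.8 in spleen and 33.3 and 27.5 in MLN and was not called. All 9 had a negative log2 fold change (median -2.83). The pDC markers summed to 4353 to 5498 in spleen and 11176.5 to 14479 in MLN, with 2 of 8 called, namely Pacsin1 (log2 fold change -3.88 ± 0.61 SE, adjusted p = 0.00367) and Spib, a transcription factor of pDCs and B cells, with 3190.5, 2636 and 2879 in spleen and 8717 and 12606 in MLN (log2 fold change -1.88 ± 0.49 SE, adjusted p = 0.037; lost under each single omission, up to 0.2 without MLN replicate 2). The pDC surface receptor Siglech, at 170.4, 61 and 57.9 in spleen and 320.4 and 82.4 in MLN, was not called. Stromal and endothelial markers summed to 1748 to 3525 in spleen and 1251 to 1370.1 in MLN. Most members went the other way than this sum, with 9 negative and 2 positive log2 fold changes (median -2.04). Of 11 tested, only Lum was called, with 2 reads in the spleen libraries together and a ratio, MLN over spleen, of 238 with an interval of 65.5 to 1970, and it lost the call under every single omission (up to 0.2 without MLN replicate 1). Lum, the proteoglycan lumican of fibroblasts, had 0, 2.5 and 0 in spleen and 267 and 73.9 in MLN. By edgeR 0 genes of the B cell, plasma cell, monocyte, NK cell and cDC1 lists were called. B cell markers nevertheless summed to 5163.5 to 6033 in spleen and 2553 and 3060 in MLN, and monocyte markers to 8475 to 23244.5 and 5467 to 7766. Plasma cell markers summed to 17949 to 19693 in spleen and 12563 to 15417 in MLN, and NK cell markers to 87.8 to 96.5 and 54.1 to 54.9. These sums were higher in every spleen library than in either MLN library, as were 17.5% of all tested genes, Fcgr2b, Fcgr4 and Cd300e among them. The cDC1 sums overlapped (7824 to 16017 and 8483.5 to 10128). Of the 5 libraries, spleen replicate 2 alone held many transcripts of the exocrine pancreas, which lies next to the spleen, such as Prss2 with 3.6, 1078 and 1.9 in spleen and 2.5 and 5.7 in MLN. The list of epithelial, pancreatic and fat markers summed to 3160.4 in that library and 232 to 417 in the other spleen ones, and spleen replicate 2 was also the highest among T-bet+ cDC2s (687 against 266 to 352) and cDC1s (614 against 63.4 to 69.1). The part of these cells in the differences of other genes was not tested.

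**Figure D3:**
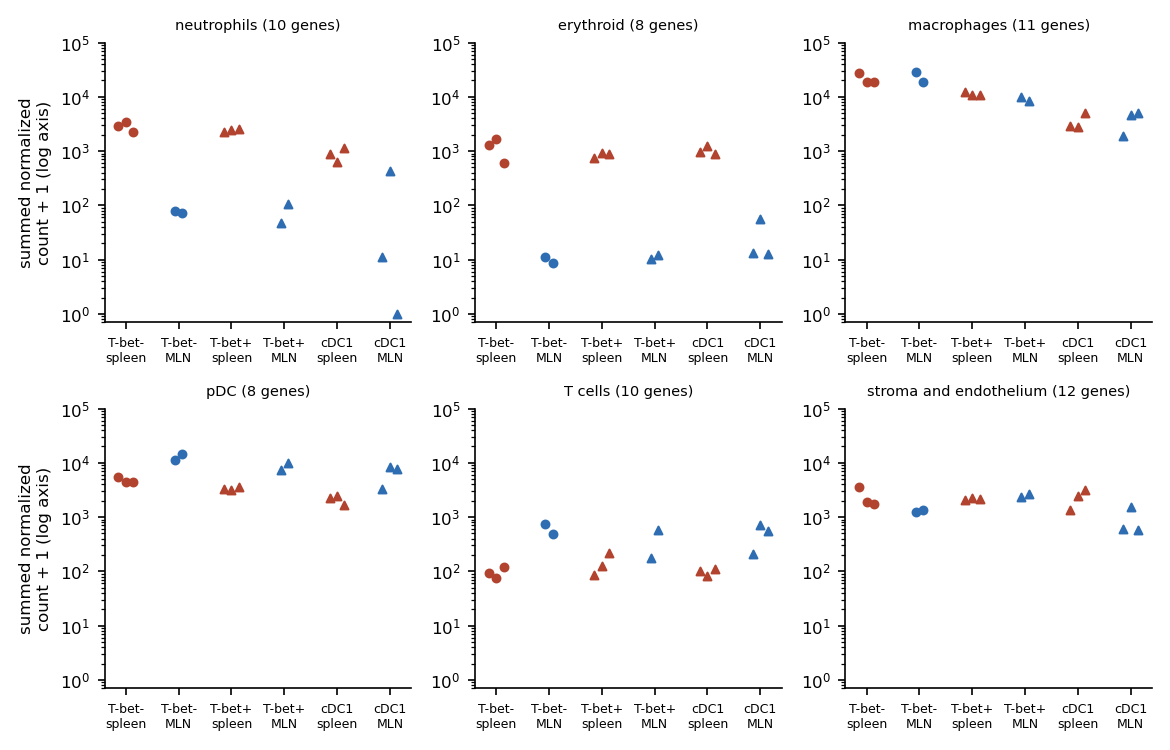
Summed normalized count plus 1 (log axis) of 6 lists of marker genes of other cells in each of the 16 RNA-seq libraries, with the number of genes in the table. Red symbols are spleen and blue MLN libraries, circles are T-bet- cDC2s and triangles the other subsets; neutrophil and erythroid sums separate spleen from MLN in all 3 subsets, while macrophage sums of T-bet- cDC2s overlap between the tissues.

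Immediate early and NF-kB response genes varied widely within a tissue. Of 28 tested, 2 (Il1b and Tnf) were higher in spleen, with a median log2 fold change of 1.12, beside 0.04 for all genes. Jun had 1188, 3622 and 32185 in spleen and 1146 and 6874 in MLN (log2 fold change 1.62 ± 1.16 SE, adjusted p = 0.401), and Dusp1, a phosphatase induced by stress, had 3605, 7649.8 and 65659 in spleen and 3038 and 11068 in MLN (log2 fold change 1.86 ± 1.13 SE, adjusted p = 0.319). In both genes spleen replicate 3 was the highest library and MLN replicate 2 stood above MLN replicate 1. Without spleen replicate 3 the fold changes were -0.74 for Jun and -0.33 for Dusp1. Of 20 glycolysis genes, 4 were higher in spleen and 1 in MLN, beside 1.59% and 4.36% of all tested genes. The glucose carriers Slc2a1 and Slc2a3 differed 3.06-fold and 2.79-fold towards spleen (log2 fold change 1.61 ± 0.42 SE, adjusted p = 0.0367 and log2 fold change 1.48 ± 0.41 SE, adjusted p = 0.0492), while Pfkfb3, which drives glycolysis through fructose 2,6-bisphosphate, had 6504, 4435 and 6083 in spleen and 37143 and 26432 in MLN (log2 fold change -2.49 ± 0.56 SE, adjusted p = 0.02). For Slc2a1 the adjusted p was 0.088 and 0.097 without spleen replicates 1 and 2, and 0.28 and 0.17 without MLN replicates 1 and 2, and for Pfkfb3 the adjusted p was 0.05 and 0.08 without spleen replicates 1 and 2, and 0.14 and 0.055 without MLN replicates 1 and 2. Slc2a3 lost the call under each single omission, up to 0.41 without MLN replicate 1. The other called members were Pkm and Slc16a3. Of 27 cell cycle genes and 10 heat shock genes, 0 were called in the edgeR test and in every alternative fit. Of 76 ribosomal protein genes 12 were called, all higher in spleen, beside 1.59% of all tested genes. Their median was 0.93, and the 76 genes summed to 356800 to 714600 in spleen and 249000 to 288900 in MLN. In the Toll-like receptor list, Tlr2 and its co-receptor gene Cd14 were higher in spleen among 19 tested, with 13391, 8953 and 7108 in spleen and 2263 and 3247 in MLN for Tlr2 (log2 fold change 1.83 ± 0.39 SE, adjusted p = 0.0151) and 9999, 10572 and 5315 in spleen and 1506 and 2268 in MLN for Cd14 (log2 fold change 2.19 ± 0.45 SE, adjusted p = 0.013). For Tlr2 the adjusted p was 0.19 and 0.065 without MLN replicates 1 and 2, and for Cd14 the adjusted p was 0.17 and 0.057 without MLN replicates 1 and 2.

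Some of the genes that the study used to set T-bet- apart from T-bet+ cDC2s were called between tissues. Of the 155 T-bet- core genes tested, 10 were higher in spleen and 4 in MLN, beside 1.59% and 4.36% of all tested genes, with a median log2 fold change of -0.03, and of the 69 T-bet+ core genes 2 (Cd7 and Gp2) were higher in spleen and 0 in MLN. These lists were chosen by the study on these same samples and are not independent evidence. With 1 library left out, 1 to 9 of the T-bet- core genes were called in spleen and 1 to 3 in MLN. The T-bet- core genes higher in spleen were Ace, Cd14, Clec12a, Fcgr2b, Hmox1, Hpgd, Ocstamp, Psap, Sqrdl and Thbs1, and those higher in MLN were Clu, Kcnd1, Ptgs1 and Spon1. Ptgs1, which encodes cyclooxygenase 1, had 294, 214 and 203 in spleen and 1426 and 686 in MLN (log2 fold change -2.16 ± 0.49 SE, adjusted p = 0.0205; adjusted p was 0.083 and 0.051 without spleen replicates 2 and 3, and 0.28 without MLN replicate 1). Thbs1, the matrix protein thrombospondin 1, had 11926, 4872 and 3341 in spleen and 248 and 1028 in MLN (log2 fold change 3.40 ± 0.93 SE, adjusted p = 0.0461; adjusted p was 0.1 and 0.072 without spleen replicates 1 and 2, and 0.34 and 0.087 without MLN replicates 1 and 2). Ptgs1, which makes the precursor of prostaglandins, and Hpgd, which degrades prostaglandins, thus differed in opposite directions.

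Most of the tissue difference was also seen in the other subsets, measured in libraries that the contrast of T-bet- cDC2s did not use but that may share its pools of mice. In cDC1s, with 3 libraries from each tissue, 11.7% of the tested genes were called (3.93% higher in spleen and 7.75% in MLN), and in T-bet+ cDC2s, with 3 spleen and 2 MLN libraries, 5.09% (1.30% and 3.79%). Of the 267 genes called higher in spleen, 253 (94.8%) had the same sign in cDC1s and 259 (97.0%) in the T-bet+ subset, beside 76.1% and 75.5% of all tested genes. Called with the same sign were 122 in cDC1s (45.7% of these 267 and 18.5% of the genes that cDC1s called higher in spleen) and 84 in T-bet+ cDC2s (31.5% and 38.4%). Of the 733 genes called higher in MLN, 713 (97.3%) and 716 (97.7%) had the same sign, and 477 (65.1% of the 733 and 36.7% of the cDC1 calls) and 296 (40.4% and 46.5%) were called with it. In all, 230 of the 733 and 59 of the 267 were called in all 3 subsets, and 190 and 120 were called in T-bet- cDC2s and in neither other subset, which does not show that they differ between subsets. Aldh1a2 had a log2 fold change of -5.56 here, -7.13 among cDC1s and -4.03 among T-bet+ cells, and Mx1 was at -4.11, -1.50 and -3.82.

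The difference between subsets was tested directly, in a fit that treats libraries as independent although subsets may share pools of mice. The tissue difference in T-bet- cDC2s differed from that in cDC1s for 6 genes (0.0357% of those tested, 0.0179% in each direction, beside 991 at an unadjusted p under 0.05), and from that in T-bet+ cDC2s for 1 gene (0.00595%, beside 847). By DESeq2 these counts were 114 and 39. Cd209b had a mean of 1309 in spleen and 95.7 in MLN in T-bet- cDC2s and had a positive fold change in both cDC2 subsets and a negative one in cDC1s, with a log2 fold change of 3.77 in the T-bet- subset, 2.14 in the T-bet+ subset (adjusted p = 0.012) and -1.68 in cDC1s (adjusted p = 0.0168). Gpr4, a proton-sensing receptor, was the gene that separated T-bet- cDC2s from both other subsets. It had 349, 246 and 247 in spleen and 985 and 766 in MLN (log2 fold change -1.64 ± 0.30 SE, adjusted p = 0.008; adjusted p was 0.083 without MLN replicate 1). Its means were 5288 in spleen and 2628 in MLN for cDC1s, and 3990.0 and 1114 for the T-bet+ subset. The fold change was thus negative in T-bet- cDC2s and positive in the other subsets, at 1.01 (adjusted p = 0.0315) and 1.84 (adjusted p = 0.00846). Cd1d1 was higher in MLN in T-bet- cDC2s (log2 fold change -3.83) and also in T-bet+ cDC2s (-2.35, adjusted p = 0.0122). In cDC1s it had 6763 in spleen and 4398 in MLN. Tppp3, a tubulin-binding protein, had 938, 1202 and 694 in spleen and 129 and 132 in MLN (log2 fold change 2.86 ± 0.49 SE, adjusted p = 0.00568; adjusted p was 0.078 and 0.058 without MLN replicates 1 and 2), and means of 52.6 and 235 in cDC1s. Adgrl3, the adhesion receptor latrophilin 3, had 1387, 899 and 1044 in spleen and 284 and 351 in MLN (log2 fold change 1.81 ± 0.45 SE, adjusted p = 0.0329; adjusted p was 0.077 and 0.058 without spleen replicates 1 and 2, and 0.29 and 0.15 without MLN replicates 1 and 2), and in cDC1s its mean was 660 in spleen and 2.54 in MLN. Pdcd1lg2, not called between tissues in T-bet- cDC2s, had a mean of 53.2 in spleen and 2960.0 in MLN in cDC1s.

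**Figure D4:**
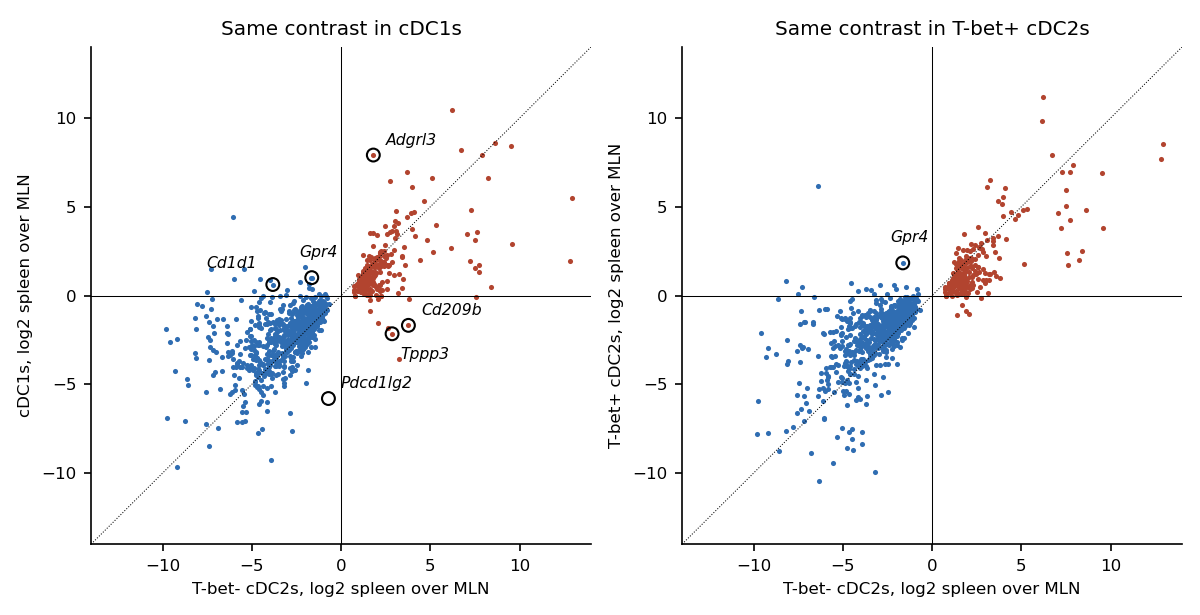
Log2 fold change (spleen over MLN) in cDC1s (left) and T-bet+ cDC2s (right) against that in T-bet- cDC2s, for the 1000 genes called in T-bet- cDC2s and the genes whose tissue difference differed between subsets (black rings; 6 on the left, 1 on the right). Red and blue points were called higher in spleen and MLN in T-bet- cDC2s, and the dotted line marks equal fold changes; most points lie in the same-sign quadrants.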

How the data were processed

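RNA was amplified with a SMARTer kit and sequenced on a HiSeq instrument. The authors aligned reads with HISAT2 (2.1.0) to mm10 and counted them per gene on GENCODE vM17 with Rsubread, and deposited raw read counts for 34047 genes. Strand use in counting is not given in the sources used here, so overlapping and antisense genes can share reads. For ATAC-seq the authors used Bowtie2 (2.2.5) and MACS2 (2.1.1.20160309), called summits on all replicates together and deposited read counts in windows of 150 bases, with coordinates beside the -log10 p of each summit, which was not used here. Tool versions and the build are from the submitters' processing notes. Peak spans and their counts were not used, and the deposited score of the peak list is a constant 0.

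Genes were filtered with filterByExpr, scaled by TMM and tested with edgeR's quasi-likelihood test (edgeR 4.0.16, limma 3.58.1, R 4.3.3, two-sided, with the legacy quasi-dispersion) in 1 fit of all 16 RNA libraries in 6 groups with 10 residual degrees of freedom. The p-values were Benjamini-Hochberg adjusted over all 16795 genes, and the threshold was 0.05. Within a subset each library is a pool of 2 mice by the study's methods, and p-values measure the spread between these libraries. Subsets may share pools, which the fit did not model. The labels number the MLN libraries as replicates 1 and 2, while the library names carry 2 and 3. Normalized counts refer to a library of 24742165 reads. Counting intervals and floors cover counting error only. Of the gene symbols, 19654 matched GENCODE M21.

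The members, gene lists and named-gene rules were chosen with earlier results of these data known. Named were the 12 called genes per direction with the largest fold change among those whose mean reached 50 normalized counts and whose tissues did not overlap, up to 4 called genes per list and direction, markers and identity genes, and genes whose tissue difference differed between subsets. Called genes with a mean of at least 1000 (12 per direction) and 23 genes beside their lists were added after their values were seen, and so were the few other list members named by symbol. Promoter sequences are from RefSeq (GRCm38.p6) and matched 104 of 156 named genes. Alternatives were DESeq2 (1.42.0), other scaling, filters, thresholds and dispersion, a term for library class, the 5 libraries alone, replicate blocks and each library left out. A few items are not reported here. Figures were drawn with matplotlib 3.10.9 in Python 3.11.15.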

Additional observations from a re-analysis of the deposited data

Results flagged for a closer look

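For 6 genes the tissue difference of T-bet- cDC2s differed from that of cDC1s in the edgeR test of the interaction, given here as the log2 fold change (spleen over MLN) in T-bet- cDC2s minus that in cDC1s. The difference was 5.45 for Cd209b (adjusted p = 0.00301), 5.01 for Tppp3 (0.0101) and 5.09 for Pdcd1lg2 (0.0119). It was -6.11 for Adgrl3 (0.00301), -4.45 for Cd1d1 (0.0154) and -2.65 for Gpr4 (0.0379). Adgrl3 was called in 15 of 15 alternatives and Cd209b in 14, Tppp3 and Pdcd1lg2 in 12, and Cd1d1 and Gpr4 in 10. Without MLN replicate 1 of the T-bet- cDC2s only 1 gene was called.

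For Gpr4 the tissue difference of T-bet- cDC2s also differed from that of T-bet+ cDC2s, by -3.48 (adjusted p = 0.0273). It was called in 9 of 15 alternatives. No explanation was tested for any of these differences.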

How the results depend on the processing

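Against 1000 called genes, 2243 were called by DESeq2's Wald test (997 shared), 2435 without a filter on low counts (922 shared, with 34047 genes tested), 1688 with the newer quasi-dispersion estimate and 234 at an adjusted p under 0.01. Scaling by library size alone gave 1258, a term for library class 1480, and the 5 libraries alone 774. Leaving out 1 library gave 186 to 944. Where 1 MLN library remained, it was assumed to vary like the other groups. Without both higher-GC libraries, an alternative chosen after seeing the data, 101 were called.

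With a replicate block by the title's number 1019 genes were called (851 shared), and by the number in the library name 601 (584 shared). The deviations of same-numbered libraries correlated at 0.713 and -0.132 by title and 0.132 and 0.667 by library name, over 2 pairs each. The deviations of the 2 MLN libraries from their mean mirror each other, so these values cannot decide whether libraries are paired. The main fit used no replicate block and took the samples to share only a number.

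Genes that differed from cDC1s numbered 114 by DESeq2, 261 without the filter, 13 with the class term, 3 without both higher-GC libraries and 1 to 6 with 1 library left out. Genes that differed from T-bet+ cDC2s numbered 39, 186, 0 with library size alone and 0 to 1 with 1 library left out.

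Of 156 named genes 128 were called, 38 of them under each single omission and 25 in every alternative, and 0 called genes changed sign in the single omissions. The only sign changes were in genes not called. The log2 fold change of Flt3 was -0.0499 with library size alone and -0.0454 with the replicate block, where the log2 fold change of Zbtb46 was -0.12. Without both higher-GC libraries they were -0.0182 and -0.81. With 1 library left out Zbtb46 ran from -1.12 to 0.58, Flt3 from -0.51 to 0.59, Irf4 from -0.0897 to 0.35, Jun from -0.74 to 3.41, Dusp1 from -0.33 to 3.06 and Prss2 from -0.55 to 7.08. The cause of these changes was not tested.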
